A study of Rattus norvegicus with 16 samples.

Results

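The choroid plexus epithelium genes described here are 9 genes that mark the epithelial cells of the choroid plexus, the tissue in the brain ventricles that makes cerebrospinal fluid. They were Ttr, Kcnj13, Igfbp2, Ace, Kl, Folr1, Clic6, Slc4a5 and Aqp1, chosen by name, and were 9 of the 12180 genes with a symbol on the array. Each was measured by 1 probe, matched through its RefSeq accession. RNA came from the right hippocampus of 16 male Wistar rats hybridised to 16 one-colour Agilent arrays, which the labels describe as 1 array per animal. All rats had a cannula placed at the right amygdala at 5 weeks of age and received their 1 µl injection 5 days later. The 4 control rats received saline of pH 2.2 and were killed 15 days after it. The 12 Fe rats received FeCl3, the iron salt used in rats to model posttraumatic epilepsy because iron from shed blood provokes seizures, at 100 mM in saline of the same pH. They were killed at 5, 15 or 30 days, 4 rats at each time, called here Fe day 5, Fe day 15 and Fe day 30. Because the controls were killed at day 15 alone, iron cannot be told apart from age and time since injection in the Fe day 5 and Fe day 30 groups. Per the series text some rats, not named there, were also prepared for microdialysis. Whether choroid plexus was removed at dissection is not stated in the labels.

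The choroid plexus is a sheet of cuboidal epithelium around a vascular core, and in the lateral ventricle it is attached along the inner edge of the hippocampus. Its epithelial cells secrete cerebrospinal fluid by moving ions and water from blood to ventricle, and release carrier and signalling proteins into it. Transthyretin, encoded by Ttr, is among the most abundant of these products, and its RNA is widely used to recognise the epithelium in brain tissue. The epithelium continues at its base into ependyma, the ciliated lining of the ventricle, while the meninges are the fibroblast-rich coverings of the brain surface.

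Levels are given as log2 of the processed signal relative to the 75th percentile of the same array, so that 0 means a signal equal to that percentile and a difference of 1 is a doubling. Levels of different genes are not compared, because they come from different probes. The 75th percentile ran from 553 to 924 processed signal units over the 16 arrays, and 74.2% to 81.6% of probes were well above background. Hippocampal neuron markers were present throughout, with 13 of 14 measured markers well above background on all 16 arrays. By the median deviation from the control mean over the 7 genes that could be tested, 3 arrays stood apart and are given by name below. They were Fe day 30 replicate 3 at 6.88, Fe day 5 replicate 3 at 3.41 and Fe day 5 replicate 2 at 2.00, followed by Fe day 15 replicate 4 at 1.28. The last of the 3 did not stand apart for every gene. For Ttr it read 0.38, below Fe day 30 replicate 4 at 1.80 and Fe day 5 replicate 1 at 1.18. In whole tissue, fewer cells of a type and less RNA per cell cannot be told apart.

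Fe day 30 replicate 3 had the highest value of all 16 arrays for 9 of 9 genes, against 8.14% of the 27889 features tested over the whole array. For the 7 genes that could be tested, its values lay 5.19 to 9.16 above the control mean on the log2 scale, with a median of 6.88. Fe day 5 replicate 3 was the second highest array for 7 genes, namely Ttr, Kcnj13, Ace, Kl, Folr1, Clic6 and Aqp1. The second highest was Fe day 5 replicate 2 for Igfbp2 and Fe day 30 replicate 4 for Slc4a5. The step from the highest array to the second was 3.17 to 3.81 for 8 genes and 0.22 for Igfbp2. None of the 7 tested genes was called in any comparison of groups. Over all features 0.00717% were called at day 30 against control, and 0% in every other comparison.

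The proximal promoters of 7 of the 9 genes were found in the RefSeq promoter table for GRCr8, and 3 are shown because they held a searched motif. Each run is the 250 bases before the annotated gene start, written 5′ to 3′ on the strand of the gene, with motif matches in capitals. The motifs searched on both strands were TAATCC, the core bound by OTX factors, which direct choroid plexus identity, TGTTTAC, the core of forkhead factors, and TATAAA, the TATA box.
Aqp1 (chr4:85812534-85812783, + strand): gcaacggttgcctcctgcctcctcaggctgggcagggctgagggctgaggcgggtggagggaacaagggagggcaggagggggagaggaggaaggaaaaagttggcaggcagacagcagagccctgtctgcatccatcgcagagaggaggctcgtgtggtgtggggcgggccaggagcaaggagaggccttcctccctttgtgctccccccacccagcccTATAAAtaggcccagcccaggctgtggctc
Kcnj13 (chr9:95518987-95519236, - strand): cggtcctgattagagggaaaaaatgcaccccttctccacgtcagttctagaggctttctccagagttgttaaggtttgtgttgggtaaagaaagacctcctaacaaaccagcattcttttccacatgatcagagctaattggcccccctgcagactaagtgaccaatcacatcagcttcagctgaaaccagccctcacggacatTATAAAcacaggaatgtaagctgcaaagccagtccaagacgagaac
Ace (chr10:91409879-91410128, + strand): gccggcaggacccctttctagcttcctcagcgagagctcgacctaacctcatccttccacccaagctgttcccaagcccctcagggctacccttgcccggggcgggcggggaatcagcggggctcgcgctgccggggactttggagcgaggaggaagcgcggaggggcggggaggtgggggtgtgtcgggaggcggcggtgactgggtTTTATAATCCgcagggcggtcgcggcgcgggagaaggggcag
TATAAA began 30 bases before the start in Aqp1 and 46 bases before it in Kcnj13, and lay on the opposite strand 42 bases before it in Ace. Of all 33469 promoters in the table, 12.9% held this motif in the same window. TAATCC was found in 1 of the 7 promoters, that of Ace, 38 bases before the start, where it shared letters with the reversed TATAAA, and 6.34% of all promoters held it. TGTTTAC was found in 0 of the 7, against 3.21% of all promoters. A match here is a run of letters and not a shown binding site.

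Ttr encodes transthyretin, the carrier of thyroid hormone and of retinol-binding protein. Its levels were 0.04, -0.95, -1.96 and -2.64 in control replicates 1 to 4 and 1.18, 0.38, 4.60 and -0.81 in Fe day 5. They were -1.88, -0.77, 0.25 and 0.94 in Fe day 15 and -2.10, -2.25, 7.78 and 1.80 in Fe day 30. The controls alone spanned 6.41-fold, and every Fe group held at least 1 array inside their range. Igfbp2, which encodes a secreted binding protein for insulin-like growth factors and is known from the meninges as well as from choroid plexus epithelium, had a tight baseline. Its controls lay at -1.93, -2.27, -1.92 and -1.89. The Fe day 5 arrays read -1.60, 3.38, 1.41 and -1.88, the Fe day 15 arrays -1.27, -1.31, -2.01 and -0.73, and the Fe day 30 arrays -1.60, -1.43, 3.60 and -1.93. All 4 Fe day 5 values were above all 4 controls, but replicate 4 cleared the highest control only narrowly.

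Among the genes of ion and water transport, Aqp1 encodes the water channel of the apical membrane. Its control levels were -4.15, -4.36, -4.59 and -4.39, and its Fe day 5 levels were -3.97, -1.75, -0.98 and -4.37. In Fe day 15 they were -4.77, -4.30, -3.76 and -3.15, and in Fe day 30 -4.71, -3.86, 2.50 and -3.62. Within each Fe group at least 1 array lay inside or below the control range. Kcnj13 encodes the inward rectifier potassium channel Kir7.1. It read -4.79, -5.42, -6.38 and -6.03 in the controls, of which replicates 3 and 4 were not well above background, and -3.76, -0.51, -0.22 and -5.05 in Fe day 5. Fe day 15 stood at -5.72, -5.58, -4.86 and -4.01, and Fe day 30 at -5.53, -5.84, 3.44 and -3.36. For this gene Fe day 5 replicates 2 and 3 stood close together, unlike for Ttr.

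Slc4a5, which encodes a sodium bicarbonate cotransporter, was well above background on 4 of 16 arrays and on no control or Fe day 15 array. The 4 were Fe day 5 replicate 2 at -6.54, Fe day 5 replicate 3 at -4.18, Fe day 30 replicate 3 at -0.58 and Fe day 30 replicate 4 at -4.03. Against the lowest signal that counted as above background in the controls, these arrays except the first were at least 4.52-fold, 54.5-fold and 5.01-fold higher, and the first was not above that bound. Clic6, which encodes a chloride intracellular channel protein, read -4.90, -6.02, -6.58 and -6.92 in the controls, with replicates 3 and 4 not well above background. It stood at -4.77, -4.11, -2.32 and -5.82 in Fe day 5, at -6.28, -5.38, -4.52 and -5.40 in Fe day 15 and at -6.38, -6.33, 1.28 and -4.84 in Fe day 30, where replicates 1 and 2 were not well above background. The 2 controls well above background spanned 2.17-fold, and each Fe group held values below the higher of them.

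The remaining genes encode surface and shed proteins. Folr1 encodes the folate receptor that carries folate across the epithelium into cerebrospinal fluid. Its control levels were -2.60, -2.68, -2.71 and -3.22, and its Fe day 5 levels -2.54, -2.31, -0.91 and -3.81. Fe day 15 read -3.42, -2.51, -2.37 and -3.09, and Fe day 30 -2.62, -2.77, 2.75 and -2.22. In Fe day 5 replicates 1, 2 and 3 were above all controls, and replicate 4 was the lowest of all 16 arrays. Ace encodes angiotensin-converting enzyme, which is also an enzyme of blood vessel walls. It read -4.68, -4.71, -5.22 and -4.71 in the controls, -4.15, -3.67, -3.17 and -4.47 in Fe day 5, -4.18, -4.47, -4.71 and -3.44 in Fe day 15, and -4.51, -4.44, 0.36 and -4.33 in Fe day 30. All its Fe day 5 and Fe day 30 values were above all controls, and at day 15 replicate 3 fell inside the control range. Kl encodes Klotho, a membrane and shed protein that serves as co-receptor for a fibroblast growth factor hormone. It was well above background on 3 of 16 arrays alone, at -6.69 in Fe day 5 replicate 2, -3.29 in Fe day 5 replicate 3 and 0.52 in Fe day 30 replicate 3. The last of these was at least 129-fold above the bound of the controls and Fe day 5 replicate 3 at least 9.19-fold above it, while Fe day 5 replicate 2 did not exceed the bound. The plot of the 9 genes by array shows these values together.

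**Figure D1:**
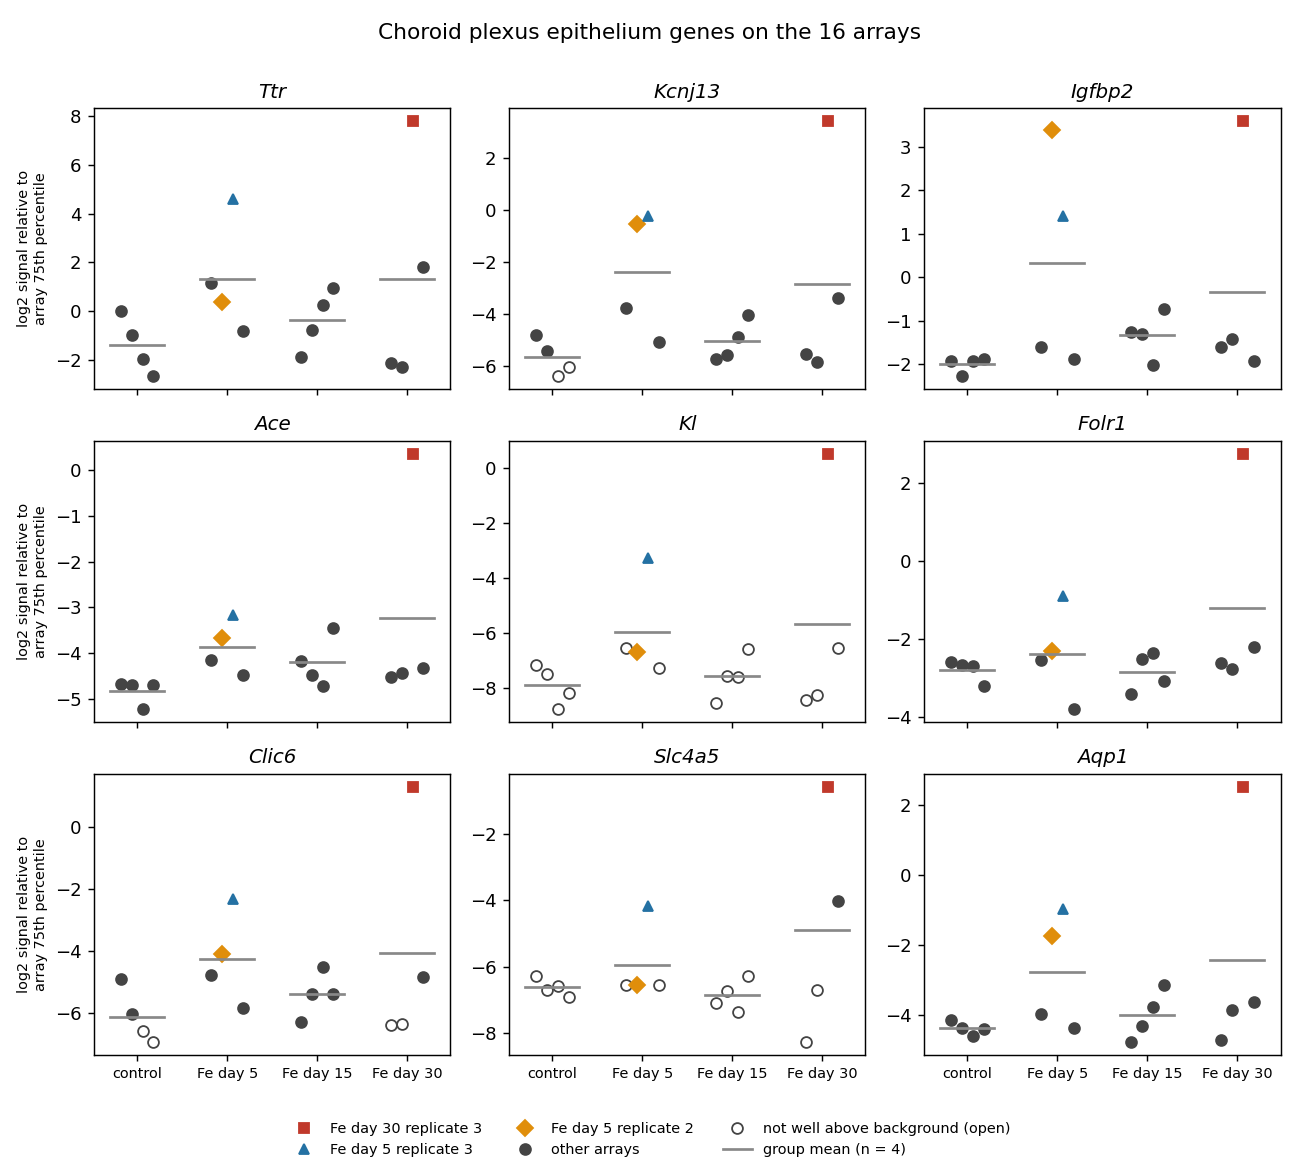
Log2 signal of each of the 9 genes relative to the 75th percentile of the array (vertical axis) in the 4 groups (horizontal axis). Each symbol is 1 array, open symbols are not well above background, and grey lines are means of 4 arrays; Fe day 30 replicate 3 (red square) is the highest array in every panel, and Fe day 5 replicate 2 (orange diamond) reaches it in the Igfbp2 panel alone, at 3.38 against 3.60.

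The genes were high largely in the same arrays, though not in equal measure. Counts per array were made over the 7 tested genes, since Kl and Slc4a5 were not well above background on any control. For each of the 7 the highest control was well above background, and every value counted as above the controls was so too. Kcnj13 and Clic6 were well above background on 2 controls each and entered the 7 through Fe groups alone. Their part in the counts is therefore not independent of the Fe arrays. All 7 were above all 4 controls in Fe day 5 replicates 1, 2 and 3 and in Fe day 30 replicate 3, where 26.3%, 27.1%, 21.6% and 22.6% of all features were so. These include the 5 genes well above background on all controls, namely Ttr, Igfbp2, Ace, Folr1 and Aqp1. In Fe day 30 replicate 4 the count was 6 of 7, without Igfbp2, against 20.6% of features, and in Fe day 15 replicate 4 it was 5 of 7, without Folr1 and Clic6, against 31.1%. Igfbp2 and Ace were the 2 genes above all controls in Fe day 5 replicate 4, Fe day 15 replicate 1 and Fe day 30 replicate 1, against 23.9%, 25.3% and 25.5% of features. Fe day 15 replicate 2 and Fe day 30 replicate 2 had 3 genes above all controls, against 23.8% and 29%, and Fe day 15 replicate 3 had 4, against 26.8%. Deviations were small in some of these arrays, with medians over the 7 of 0.68 in Fe day 5 replicate 1, 0.76 in Fe day 30 replicate 4 and 1.28 in Fe day 15 replicate 4, against 6.88 in Fe day 30 replicate 3. Among the 5 genes well above background on all controls, control replicate 1 had the highest control value for 4. The SD between controls ran from 0.18 for Aqp1 to 1.17 for Ttr, against a median of 0.13 over all features.

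The 3 arrays that stood apart differed in the proportions of the genes. To compare them, the excess of a gene's linear signal over the control mean was expressed as a percentage of its excess in Fe day 30 replicate 3. In Fe day 5 replicate 3 this excess was 5.9% to 10.9% for 8 of the 9 genes, from 5.88% for Folr1 and 6.04% for Ace to 8.12% for Aqp1 and 10.9% for Ttr. Igfbp2 stood outside that range at 20.3%. In Fe day 5 replicate 2 the same 8 genes varied more, from 0.06% to 6.29%, with Ttr at 0.37%, Clic6 at 1.71%, Aqp1 at 4.40% and Kcnj13 at 6.29%. Igfbp2 in that array reached 85.8%. For Kl and Slc4a5 the value in Fe day 5 replicate 2 lay below the control bound and is shown for completeness. In Fe day 30 replicate 4 the excess was 0.42% to 7.76% over the 8 genes, the highest being that of Slc4a5. The lowest was that of Kl, which was not well above background on this array, and the next was Aqp1 at 0.59%.

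**Figure D2:**
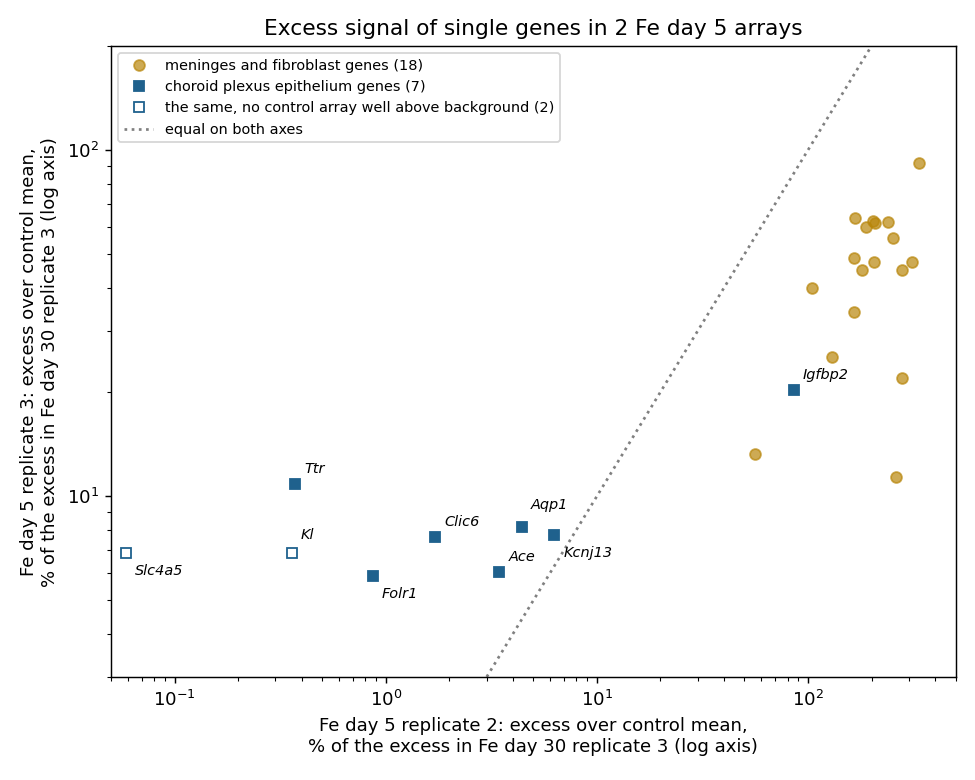
Excess of the linear signal over the control mean in Fe day 5 replicate 2 (horizontal, log axis) and Fe day 5 replicate 3 (vertical, log axis), each as a percentage of the excess of the same gene in Fe day 30 replicate 3; each symbol is 1 gene. Of the 9 choroid plexus genes, 8 lie between 5.9% and 10.9% on the vertical axis and at or below 6.29% on the horizontal one, and Igfbp2 lies apart at 85.8% and 20.3%, beside the meninges and fibroblast genes.

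The limma test gave a log2 difference of Fe day 5 over control of 2.72 ± 1.8 for Ttr (SE, n = 4 per group, adjusted p = 0.57), 3.27 ± 1.6 for Kcnj13 (adjusted p = 0.49) and 2.33 ± 1.2 for Igfbp2 (adjusted p = 0.49). Aqp1 differed by 1.61 ± 1.2 (limma, adjusted p = 0.63), Clic6 by 1.85 ± 1.3 (adjusted p = 0.60), Ace by 0.96 ± 0.83 (adjusted p = 0.67) and Folr1 by 0.41 ± 0.97 (adjusted p = 0.90). Kl and Slc4a5 were not tested because no group had them above background on all its arrays. The 7 tested genes passed that filter, which Kcnj13 and Clic6 did through Fe groups alone. All 7 were higher, with a median of 1.85 against -0.02 over all 27889 features, and 0 of 7 were called at an adjusted p under 0.05, where 0% of features were called and 10.3% had an unadjusted p under 0.05. Igfbp2 and Ace had all 4 values above all 4 controls, as 2.67% of features did, and 0 members had all 4 below, as 5.11% did. With the 3 arrays that stood apart removed at once, an alternative added after seeing the data, the median was 0.52. Ttr then differed by 1.57, Kcnj13 by 1.25, Clic6 by 0.81, Ace by 0.52, Igfbp2 by 0.27, Aqp1 by 0.21 and Folr1 by -0.37. Without replicate 3 alone Ttr differed by 1.63, Clic6 by 1.21 and Aqp1 by 1.01, and without replicate 2 alone Igfbp2 differed by 1.31. The median was 1.31 without replicate 2 and 1.21 without replicate 3, and 0.86 with normexp background correction.

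Fe day 15 was the Fe group with no array among the 3. The limma log2 differences over control were 1.02 ± 1.8 for Ttr, 0.71 ± 1.3 for Clic6, 0.67 ± 1.2 for Igfbp2, 0.63 ± 0.83 for Ace, 0.61 ± 1.6 for Kcnj13, 0.38 ± 1.2 for Aqp1 and -0.04 ± 0.97 for Folr1 (SE, n = 4 per group). Adjusted p-values in limma were 0.80 to 0.99, and 0 of 7 genes were called, as were 0% of features, while 11.6% of features had an unadjusted p under 0.05. The median was 0.63 against -0.00 over all features, 0.37 without replicate 4 and 0.13 with normexp. No member had all 4 values above or all 4 below the 4 controls, patterns seen in 4.03% and 5.8% of features. The groups share 1 estimate of the spread, and with the 3 arrays removed the SE of Igfbp2 was 0.23 and that of Ace 0.23, with adjusted p-values of 0.22 and 0.26 in limma. The remaining tested genes had adjusted p-values of 0.54 to 0.96 in limma. Those arrays were chosen for high values of these same genes, so the smaller SE follows from the choice and no conclusion is drawn from these p-values. The day 15 differences did not change, since no array of the Fe day 15 or control group was removed.

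At day 30 the limma differences were 2.69 ± 1.8 for Ttr (SE, n = 4 per group, adjusted p = 0.70), 2.83 ± 1.6 for Kcnj13 (adjusted p = 0.66), 2.04 ± 1.3 for Clic6 (adjusted p = 0.69) and 1.95 ± 1.2 for Aqp1 (adjusted p = 0.68). Igfbp2 stood at 1.67 ± 1.2 (limma, adjusted p = 0.71), Ace at 1.60 ± 0.83 (adjusted p = 0.65) and Folr1 at 1.59 ± 0.97 (adjusted p = 0.67). The median was 1.95 against -0.01 over all features, and 0 of 7 were called, where 0.00717% of features were called and 7.83% had an unadjusted p under 0.05. Without replicate 3 the median was 0.35, and Ttr stood at 0.53, Kcnj13 at 0.75, Aqp1 at 0.31, Clic6 at 0.25 and Folr1 at 0.27. Ace, the member with all 4 values above all 4 controls (2.56% of features), stood at 0.40 without it, and 0 members had all 4 below, as 3.68% of features did. With array weights the median was 0.69. The 3 comparisons share the control arrays and are therefore not independent. A moderated F-test over the 4 groups called 0 members, with adjusted p-values of 0.66 to 0.77 in limma, and the differences between Fe days called 0 members, where 0% of features were called.

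**Figure D3:**
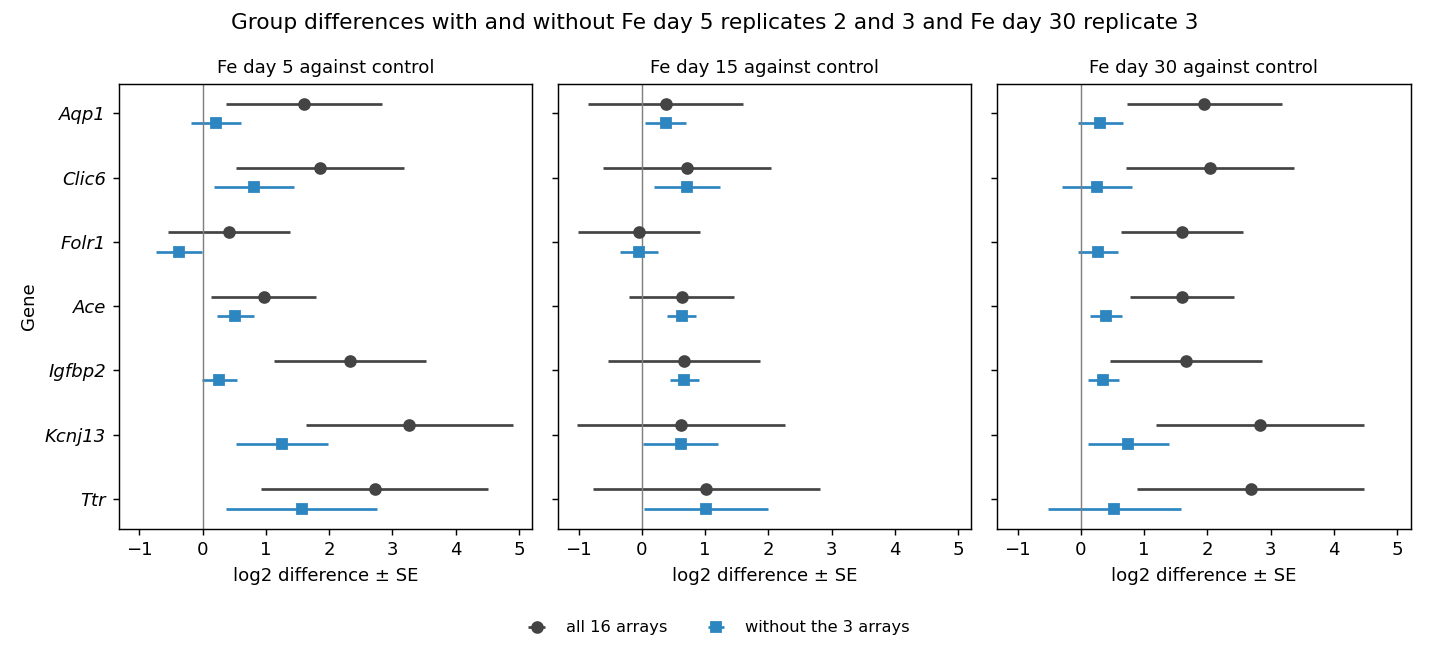
Log2 difference of each Fe group from control for the 7 tested genes, with SE bars from limma, from all 16 arrays (grey circles) and without Fe day 5 replicates 2 and 3 and Fe day 30 replicate 3 (blue squares). The Fe day 30 median is 1.95 with all arrays and 0.35 without the 3, and the Fe day 15 values coincide because that group lost no array. The 3 were chosen for high values of these genes, so the shorter bars without them follow from the choice.

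The arrays were printed on 7 slides, and 6 Fe arrays shared a slide with a control. Differences within a slide were taken over the tested genes well above background on both arrays. On its slide, Fe day 30 replicate 3 was above the control for 7 of 7 genes with a median difference of 6.87, while 37.3% of all features were higher on it. Fe day 30 replicate 4 was above its control for 4 of 5 genes with a median of 0.90, Fe day 15 replicate 2 for 5 of 5 with 0.61 and Fe day 15 replicate 3 for 3 of 5 with 0.63, where 52.4%, 51.6% and 50.9% of features were higher. Fe day 5 replicate 4 and Fe day 15 replicate 1 were above theirs for 2 of 7, with medians of -0.26 and -0.29, where 44.8% and 44.4% of features were higher. Fe day 5 replicates 2 and 3 shared no slide with a control. With slide as a block, the limma differences at day 5 became 4.13 for Ttr, 2.97 for Clic6 and 1.23 for Folr1, and that of Igfbp2 at day 30 became 0.94 (adjusted p = 0.90, 0.90, 0.91 and 0.93).

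Markers of neighbouring tissues were also high in the arrays that stood apart. The median deviation from the control mean over 17 tested meninges and fibroblast genes was 3.89 in Fe day 5 replicate 2, 2.25 in Fe day 5 replicate 3 and 3.16 in Fe day 30 replicate 3, against -0.06 to 0.03 in the controls. The summed signal of these genes, in multiples of the 75th percentile, was 36.5 to 42.4 in the controls, 40.9 to 343 in Fe day 5, 38.6 to 69.1 in Fe day 15 and 38.7 to 278 in Fe day 30. Of the 17, 17, 15 and 17 were higher at days 5, 15 and 30, and 0 were called, where 0%, 0% and 0.00717% of all features were called. Without the 3 arrays 12 were higher at day 5 and 15 at day 30. The order of the arrays differed from that of the choroid plexus genes: of the 12 meninges genes more than 3 above control on the log2 scale in Fe day 30 replicate 3, 11 had an excess over 100% of it in Fe day 5 replicate 2, with a median of 203%, and the median in Fe day 5 replicate 3 was 52.1%. Among them Col1a2, a fibrillar collagen gene, stood at 180% and 45.1%, and Ogn, which encodes an extracellular matrix proteoglycan, at 337% and 91.8%. The 12 included Aldh1a2 and Slc22a2, which were not tested and were well above background on 8 and 3 of 16 arrays. Ependymal genes had a median deviation of 1.60 in Fe day 30 replicate 3, 0.58 in Fe day 5 replicate 2 and 0.45 in Fe day 5 replicate 3, against -0.31 to 0.17 in the controls. It was higher than in those Fe day 5 arrays in Fe day 15 replicate 3, at 0.70, and Fe day 30 replicate 4, at 0.63. The other Fe arrays lay at -0.55 to 0.24. The ependymal sum was 2.80 to 3.91 in the controls, 2.32 to 5.17 in Fe day 5, 3.03 to 5.88 in Fe day 15 and 3.36 to 16.4 in Fe day 30, and 9, 4 and 10 of 10 tested genes were higher at days 5, 15 and 30 with 0 called. Without the 3 arrays 1 of 10 was higher at day 5 and 10 of 10 at day 30. Every measured gene of both lists was well above background on at least 1 array. Blood cell genes had median deviations of 1.92 in Fe day 5 replicate 2, 1.77 in Fe day 30 replicate 3 and 1.45 in Fe day 15 replicate 4, against -0.22 to 0.16 in the controls, and 0.47 in Fe day 5 replicate 3. They stood at 1.18 in Fe day 5 replicate 4, 1.09 in Fe day 15 replicate 2 and 0.94 in Fe day 15 replicate 3, and at -0.39 to 0.31 in the other Fe arrays. Of 8 tested blood genes 7, 6 and 7 were higher at days 5, 15 and 30. Cd3e was lower, by -3.86, -2.57 and -3.80 (SE 1.7 each, adjusted p = 0.48, 0.56 and 0.63 in limma). It was well above background on 11 of 16 arrays, and its Fe day 5 levels alone ran from -8.96 to -2.23. Microglia and macrophage genes stood at 0.92 in Fe day 30 replicate 3 and 1.02 in Fe day 15 replicate 4, against -0.05 to 0.12 in the controls. Genes of pericytes and smooth muscle stood at 0.90 in Fe day 5 replicate 2 and 0.51 in Fe day 30 replicate 3, against -0.19 to 0.20 in the controls and 0.03 to 0.43 in the other Fe arrays. The part of these cells and tissues in the differences of the 9 genes was not tested. Hippocampal neuron genes stood at -0.45 and astrocyte genes at -0.06 in Fe day 30 replicate 3. The neuron genes were as low or lower in Fe day 5 replicate 2 at -0.45, Fe day 15 replicate 1 at -0.48 and Fe day 15 replicate 4 at -0.78. They lay at -0.34 to 0.03 in the other Fe arrays and at -0.06 to 0.05 in the controls.

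**Figure D4:**
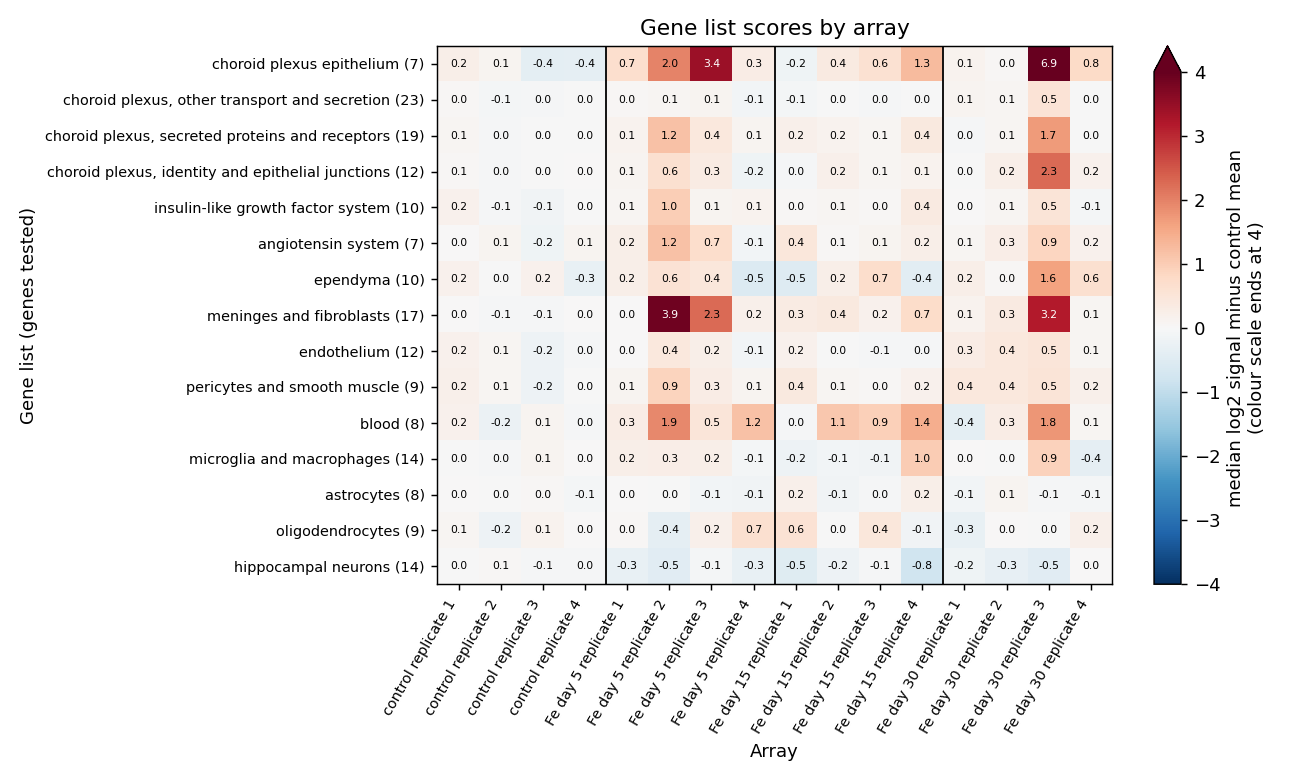
Median log2 deviation from the control mean (colour and printed value, scale ending at 4) of each gene list (rows, with the number of tested genes) on each of the 16 arrays (columns, groups separated by lines). The choroid plexus epithelium row peaks at 6.88 in Fe day 30 replicate 3, and the meninges and fibroblast row peaks at 3.89 in Fe day 5 replicate 2.

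Other genes known from the choroid plexus were described in 3 further lists. Of their genes 0 were called, where 0%, 0% and 0.00717% of all features were called at days 5, 15 and 30. Of 23 tested genes of transport and secretion, 15, 9 and 19 were higher at days 5, 15 and 30, with medians of 0.12, -0.04 and 0.22, against -0.02, -0.00 and -0.01 over all features. Without the 3 arrays 11 and 14 of them were higher at days 5 and 30, with medians of -0.00 and 0.06. Of 19 tested genes for secreted proteins and receptors, 16, 18 and 18 were higher, with medians of 0.43, 0.23 and 0.62. Without the 3 arrays 13 and 11 were higher at days 5 and 30, with medians of 0.12 and 0.09. Of 12 tested genes of epithelial identity and junctions, 11, 10 and 11 were higher, with medians of 0.27, 0.24 and 0.65. Without the 3 arrays 6 and 9 were higher at days 5 and 30, with medians of 0.00 and 0.19. Many genes of the first list, such as subunits of the sodium pump, are used by neurons and glia as well.

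Some genes of these lists were high in the same arrays as the members. Sostdc1, which encodes a secreted inhibitor of BMP and Wnt signals, lay 9.81 above the control mean in Fe day 30 replicate 3, 5.89 in Fe day 5 replicate 3 and 1.78 in Fe day 5 replicate 2, an excess of 6.46% and 0.26% in the Fe day 5 arrays, in that order. Cldn2, a claudin of leaky epithelial junctions, lay 8.47 above control in Fe day 30 replicate 3 and had 5.85% and 0.08% of that excess in the same Fe day 5 arrays. Kcne2, a potassium channel subunit, was 5.33 above control with 5.51% and 0.71%, and Slc16a8, a monocarboxylate transporter, 4.98 above with 6.39% and 1.28%. The other named genes of the transport list had larger shares. Slc5a5 was 4.52 above with 18.9% and 32.0%, and Slc22a8 2.44 above with 17.9% and 66.1%. Prlr, the prolactin receptor, was 6.69 above with 7.78% and 5.24%, and Enpp2, which encodes the secreted enzyme autotaxin, 3.88 above with 8.68% and -0.24%. Igf2, a growth factor gene also known from the meninges, was 4.38 above with 28.0% and 112%. Other genes of the lists were higher in Fe day 5 replicate 2 than in Fe day 30 replicate 3: Cdh1, which encodes E-cadherin, stood at 5.48 against 4.82 above control, and Htr2c, a serotonin receptor gene, at 3.52 against 3.39. The Cdh1 controls were low, at -8.88 to -6.18, so its deviations may rest partly on dim signals. Htr2c lay 0.27 above control in Fe day 5 replicate 3, but 2.68, 2.20 and 2.62 above it in Fe day 5 replicate 1 and Fe day 15 replicates 1 and 4. Epcam, an epithelial adhesion gene, was highest in Fe day 15 replicate 4, at 2.88 above control, against 2.21 in Fe day 30 replicate 3. Cldn2, Prlr and Enpp2 were picked out after their values were seen. Cldn2 and Prlr were not tested, being well above background on 7 and 5 arrays, and Cdh1 was so on 9. Cldn2 and Prlr were not well above background on every control, so their deviations and percentages rest partly on dim signals. In these lists 22 genes were more than 3 above control in Fe day 30 replicate 3. Of them, 17 had under 15% of that excess in Fe day 5 replicate 3. In Fe day 5 replicate 2, 14 had under 15% and 5 had over 100%. The 22 include Cldn2, Prlr, Kcnq1, Lbp, Tmem72 and Lmx1a, which were not tested because they were too dim.

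The binding proteins and receptors around Igfbp2 and the peptidases around Ace were described as well. Of 10 tested genes of the insulin-like growth factor system, 8, 8 and 8 were higher at days 5, 15 and 30, with medians of 0.38, 0.21 and 0.18 and 0 called. Over all features 0%, 0% and 0.00717% were called on these days. Igf2 lay 4.53 above control in Fe day 5 replicate 2 and 4.38 in Fe day 30 replicate 3, and Igfbp6, another binding protein, 2.56 and 1.82. Of 7 tested genes of the angiotensin system, 7, 6 and 4 were higher, with medians of 0.32, 0.20 and 0.19 and 0 called; Ace itself is one of them. Enpep and Anpep, aminopeptidases that trim angiotensin peptides, lay 2.04 and 1.86 above control in Fe day 5 replicate 2 and 1.57 and 1.45 in Fe day 30 replicate 3.

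The pattern most like that of the 9 genes was looked for among 9581 other genes with a symbol, by Pearson's r over the 16 arrays with the mean deviation of the members. That mean was over all 9, including Kl and Slc4a5, which were not well above background on any control or Fe day 15 array. As a description, the highest values were those of Sostdc1 at 0.97, Smim22 at 0.97, Rbm47 at 0.96, Pla2g5 at 0.96, Kcne2 at 0.95, Nt5dc2 at 0.95, Steap1 at 0.94, Col8a1 at 0.93, Tmem123 at 0.93 and Scgb1c1 at 0.93. Each of the 10 lay 1.05 to 9.81 above control in Fe day 30 replicate 3, and without the 3 arrays that stood apart r fell to between 0.35 and 0.94. Over the 8 control and Fe day 15 arrays, which hold none of the 3 that stood apart, r was 0.95 for Sostdc1, 0.92 for Rbm47, 0.78 for Pla2g5 and 0.51 for Smim22, and -0.02 for Kcne2. By Spearman's rho, 3 of the 10 genes were again among the first 10, namely Sostdc1, Pla2g5 and Smim22.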

How the data were processed

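Per the submitters' processing notes, spots were read with Agilent Feature Extraction 9.5. Per the file headers, the deposited processed signal is a background-subtracted, detrended linear intensity. The deposited series table held the same intensity in 100% of entries (relative tolerance 1e-06). Each array had 45018 spots, and 0 were saturated. Here log2 of the signal minus the array's 75th percentile was used, with flagged spots left out. A feature, 1 probe per gene symbol (the brightest) or an unnamed probe, was tested where every array of some group had it well above background; 27889 passed, 9588 of them with a symbol, matched through a RefSeq table on GRCr8. The 4 groups entered 1 limma model (limma 3.58.1, R 4.3.3; 16 arrays, 12 residual degrees of freedom). Tests were two-sided, and calls needed an adjusted p (Benjamini-Hochberg over all features of a comparison) below 0.05. The number of arrays limits the precision, and the spread behind each p-value is that between animals. A bound is the higher of the lowest signal well above background and the probe's own signal, averaged over the control arrays.

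Genes named were all 9 members, up to 4 genes per list with the largest mean difference over the 3 days, and the 10 genes with the highest r. A few others are named beside them. The members, lists and tests were chosen with earlier results of these data known. The fit was tested on simulated data. Alternatives covered background correction (normexp, offset 50, on median spot signals), scaling, filters, probe choice, array weights, trend, slide and replicate blocks and leaving out arrays.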

Additional observations from a re-analysis of the deposited data

Results flagged for a closer look

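Of 48 combinations of gene or list and group that were examined, 9 had an array farther from the rest of its group than Dixon's 95% limit for 4 arrays allows, and chance flags about 1 in 20. In Fe day 30 replicate 3 these were Igfbp2 at a log2 level of 3.60, Ace at 0.36, Folr1 at 2.75 and Aqp1 at 2.50, each the highest of its group. The median deviations of the choroid plexus epithelium genes at 6.88 and of the meninges and fibroblast genes at 3.16 stood out in the same array. Slc4a5 in Fe day 5 replicate 3, at -4.18, was the highest of its group, although 2 arrays of that group were not well above background for it. Among the controls, Igfbp2 was low in replicate 2 at -2.27 and Ace in replicate 3 at -5.22, each the lowest of its group.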

How the results depend on the processing

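No member was called under any alternative run, with adjusted p-values in limma of 0.23 to 0.98 at day 5, 0.22 to 1.0 at day 15 and 0.45 to 0.98 at day 30. Leaving out arrays together or singly is described with the results above. The median difference of the members ran over the other settings from 0.86 to 2.36 at day 5, 0.13 to 0.65 at day 15 and 0.69 to 2.05 at day 30. The lowest values came from normexp at days 5 and 15 and from array weights at day 30, and the cause was not tested. Folr1 changed sign in some settings. At day 5 it was 0.41 with all arrays, -0.37 without the 3 arrays together and -0.079 to 0.89 with single arrays left out, the lowest without replicate 3. At day 15 it was -0.04 with all arrays, 0.050 with array weights and -0.20 to 0.15 with single arrays left out. The count of features called moved more. At day 5 it was 1 with no filter on dim probes. At day 15 it was 183 with array weights, 2 with only the 2 groups compared, 1 with no filter, 1 without the 3 arrays together and 0 to 9 with single arrays left out. At day 30 it was 25 with array weights, 8 with quantile scaling, 0 with only the 2 groups compared, with a slide block or without the 3 arrays, and 0 to 10 with single arrays left out. The F-test called 1 feature with no filter and 1 with quantile scaling. Deviations of arrays with the same replicate number correlated at -0.41 to 0.39, and 8 of 16 arrays correlated best with their own number. Whether that count exceeds chance was not tested, so these values do not decide whether arrays pair by number. With a replicate block the features called were 0, 1 and 2 at days 5, 15 and 30, and 0 members. Signal over background limits Kl and Slc4a5, which have only bounds in the controls.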
